A study of Mus musculus with 6 samples.

Results

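The genes described here are those of the actin cytoskeleton and cell motility: 39 listed symbols, chosen by name, of which 34 matched a row among the 27634 genes of the deposited table. Arpc1a, Wasf2, Coro1b, Tln1 and Marcks were not matched by symbol and are not analysed here as members. The RNA came from cancer-associated dendritic cells, as the labels name them, of C57BL/6 mice bearing the tumour ID8-Defb29/Vegf-a, a mouse ovarian cancer line engineered to express a beta-defensin and VEGF-A, after 32 to 38 days of growth. Every mouse had received 100 µg of siRNA in nanocomplexes with Rhodamine-conjugated polyethylenimine (a nucleic acid carrier), with either non-targeting (NT) siRNA or siRNA against Satb1, which encodes a chromatin organiser. In the experiment with strong Satb1 downregulation (the high experiment) there were 2 libraries per siRNA, and in that with weak downregulation (the low experiment) 1 library per siRNA. The libraries were thus labelled high NT, high Satb1 siRNA, low NT and low Satb1 siRNA. No untreated or tumour-free group is among the libraries analysed here, and the sources used here do not say how many mice stand behind a library.

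Actin is a globular protein that assembles into filaments, and a migrating or phagocytosing cell pushes its membrane forward by adding actin monomers at the filament ends that face the membrane. Small GTPases such as Rac and Cdc42 switch on proteins of the WASP family, these activate the Arp2/3 complex, and Arp2/3 starts a new filament as a branch on an old one. Other proteins store monomers, sever or cap filaments, bundle them, or tie them to integrins and to the plasma membrane. Dendritic cells use this machinery to sample their surroundings, to move to lymph nodes and to form contacts with T cells, and mature dendritic cells are known for high levels of the bundling protein fascin.

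Total counts were 67774712 and 71272720 (high NT), 51710612 and 49022011 (high Satb1 siRNA), 27029554 (low NT) and 24553454 (low Satb1 siRNA). The repeats of the high groups were nearly identical, with a chi-square per gene of 1.202 between the NT repeats and 1.37 between the Satb1 siRNA repeats, against 67.4 when NT was set against Satb1 siRNA. The repeats of a high group may therefore stem from 1 sample. The edgeR test of the high experiment still entered them as separate libraries, and only the fits to summed repeats counted each high group as 1 sample. Every SE and p-value from separate libraries below thus compares the sequenced libraries, not the treatments over independent samples. The targeted gene Satb1 had 1233 and 1193 counts with NT siRNA and 184 and 200 with Satb1 siRNA in the high experiment, and 170 and 165 counts in the low experiment, where the exact 95% counting interval of its log2 ratio (-0.58 to 0.058) included 0. Levels are in CPM, a count relative to the library total, after TMM scaling over the 6 libraries. CPM is not corrected for transcript length, so levels of different genes are compared only in FPKM. The dendritic cell genes Itgax (CD11c) and Flt3 were present but lower in the high experiment. Itgax stood at 20.3, 20.2, 5.47 and 4.93 CPM there and at 159 and 272 CPM in the low experiment. Flt3 stood at 0.875 to 1.88 CPM and at 16.4 and 41.5 CPM. Of the other classical dendritic cell markers summed below, Kit went the other way between controls (27.2 and 26.2 CPM in high NT, 21.1 CPM in low NT). H2-Ab1 was not low in high NT, at 177 and 176 CPM, but stood at 1705 CPM in low NT. The sum of 10 macrophage markers was 4024 to 4206 CPM in the high experiment and 9009.9 and 5599 CPM in the low experiment. This list was split. Mrc1 (1576 and 1576 CPM in high NT, 556 CPM in low NT), Cd163 (318 and 317, 119) and Vsig4 were lower in low NT, the others higher. Within the high experiment Cd163 was called higher (log2 fold change 0.98) and C1qb lower (-0.56), so the near-level sum hides opposite changes. All libraries are of bulk RNA, in which fewer cells of a type and less RNA per cell cannot be told apart.

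In the high experiment most members were lower with Satb1 siRNA, and those that supply and recycle actin monomers and those that act on filament ends were lower by the largest amounts. Of 34 members tested, 29 fell, 3 rose (Wipf1, Actn1 and Vcl) and 2 were not called (Rac2 and Msn), at an edgeR adjusted p under 0.05. Among all 20242 genes tested 32.8% were called lower, 32.0% higher and 64.8% in either direction, so that a call as such is common in these libraries. Called falls of at least 1.5-fold were seen for 7 members, or 20.6% (Tmsb10, Pfn1, Capg, Evl, Cfl1, Fscn1 and Vasp), against 8.54% of all genes tested, and no member rose by as much, against 13.1%. The median log2 fold change was -0.24 over the members and 0.011 over all genes. As a share of all counts the members together made up 1.81% and 1.81% (high NT) and 1.53% and 1.52% (high Satb1 siRNA). With library size alone 27 members were called lower and 4 higher, against 27.5% and 37.0% of all genes.

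Markers of cell types differed between the same libraries. The 7 classical dendritic cell markers (7 of 7 found) summed to 476 and 472 CPM (high NT) and 294 and 280.5 CPM (high Satb1 siRNA). This list was split: Itgax, Cd74, H2-Ab1 and H2-Aa were called lower, while Flt3, Kit and Zbtb46 were called higher (log2 fold changes 0.85, 0.59 and 0.21). Platelet markers (5 of 5 found) summed to 632 and 635 against 494 and 493 CPM, and endothelial markers (5 of 5 found) to 12.2 and 12.4 against 8.36 and 8.69 CPM. In the other direction B cell markers (6 of 6 found) went from 16.8 and 16.5 to 31.0 and 29.4 CPM and T cell markers (6 of 7 found) from 38.8 and 36.9 to 49.6 and 49.5 CPM. Most of the T cell sum was Cd3d, at 33.3 and 31.0 against 40.8 and 41.2 CPM. Cd3g, Cd8a and Lck were also called higher, while Cd3e and Cd4 were not called. Within the platelet list Pf4 (534 and 535 against 441 and 438 CPM) and Ppbp were called lower and Itga2b higher (log2 fold change 0.21). Gp1ba was not called and Gp9 was not tested. No marker of these lists was at 0 in any library, and the part of these cell types in the members' fall was not tested.

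**Figure D1:**
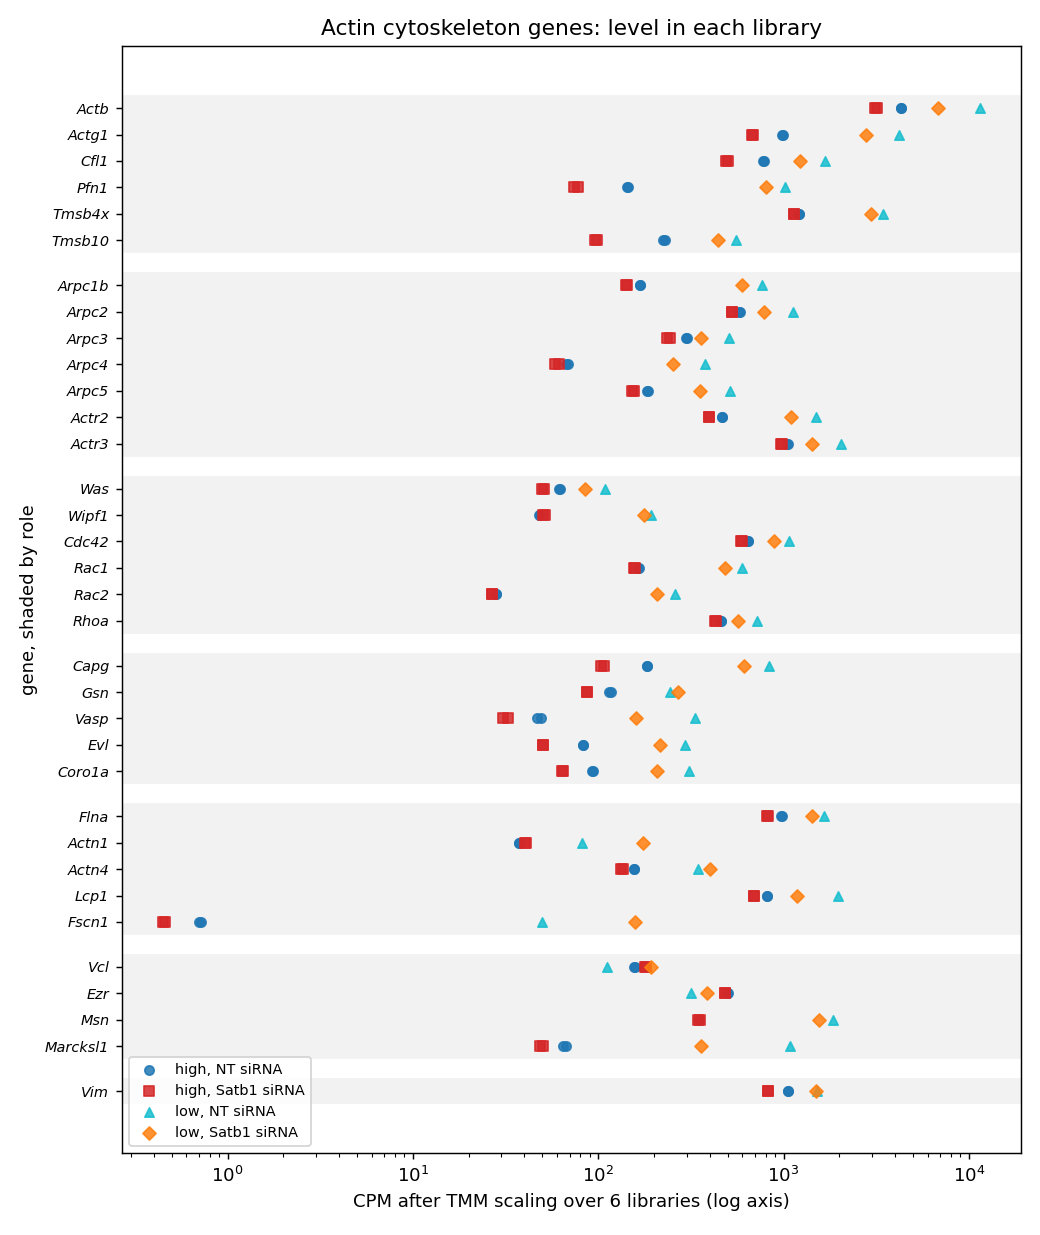
Level of each of the 34 members in each of the 6 libraries, in CPM after TMM scaling on a log axis, with genes grouped by role and 1 point per library. The high Satb1 siRNA squares lie left of the high NT circles for 30 genes. Among all 20242 genes tested 41.1% lie lower without overlap in this way and 41.1% higher. Both low libraries lie to the right of all high libraries for every gene except Vcl and Ezr.

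Beta-actin (Actb) and the monomer-binding genes were all lower with Satb1 siRNA in the high experiment, with 6 of 6 called and a median log2 fold change of -0.59. Per transcript length the highest member of the high NT libraries was Actb, at 2578 and 2567 in the authors' FPKM, followed by the monomer-sequestering thymosin gene Tmsb4x (2049 and 2049.8 FPKM), the filament-severing cofilin gene Cfl1 (730.0 and 721 FPKM), Vim (618 and 617 FPKM) and Cdc42 (536 and 539.8 FPKM). Actb stood at 4324 and 4311 CPM (high NT), 3192 and 3115 CPM (high Satb1 siRNA), 11433 CPM (low NT) and 6852 CPM (low Satb1 siRNA). Its log2 fold change in the high experiment was -0.45 (SE 0.0035, edgeR adjusted p = 1.94e-26). The ranges of the siRNA groups did not overlap, and the low experiment lay above both.

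Tmsb10, a second thymosin that holds actin monomers, had the largest fall among the members in the high experiment. It stood at 228 and 224 CPM (high NT), 97.9 and 96.0 CPM (high Satb1 siRNA), 553 CPM (low NT) and 441 CPM (low Satb1 siRNA), with a high log2 fold change of -1.22 (SE 0.020, edgeR adjusted p = 5.81e-21). Tmsb4x, which has the same function, went from 1216 and 1217 to 1138 and 1139.7 CPM in the high experiment and from 3458 to 2951 CPM in the low one. Its high log2 fold change was only -0.090 (SE 0.0031, edgeR adjusted p = 2.35e-15), so that these related genes moved by very different amounts. Pfn1 encodes profilin, which delivers monomers to growing filaments, and stood at 144 and 142 CPM (high NT), 78.2 and 74.4 CPM (high Satb1 siRNA), 1023 CPM (low NT) and 800.3 CPM (low Satb1 siRNA). It fell by 0.90 on the log2 scale (SE 0.024, edgeR adjusted p = 3.21e-17) in the high experiment. Cfl1 fell from 781 and 771 to 500.2 and 491 CPM, a log2 fold change of -0.64 (SE 0.0070, edgeR adjusted p = 5.39e-24), and stood at 1680.3 (low NT) and 1227 CPM (low Satb1 siRNA). Gamma-actin (Actg1) fell by 0.53 on the log2 scale. The coding sequences of Actb and Actg1 are nearly the same, and both have processed copies in the genome, so how the estimated counts split shared reads makes the balance between them uncertain.

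All 7 measured genes of the Arp2/3 complex, the branching machine of the filament network, fell in the high experiment, but by small amounts, from -0.31 for Arpc3 to -0.11 for Actr3. Their median was -0.23, and none passed 1.5-fold. Arpc3 stood at 297 and 299.5 CPM (high NT), 243 and 235 CPM (high Satb1 siRNA), 505 CPM (low NT) and 360.2 CPM (low Satb1 siRNA), with a high log2 fold change of -0.31 (SE 0.014, edgeR adjusted p = 9.04e-14). Arpc5 stood at 184 and 185 CPM (high NT), 152 and 156 CPM (high Satb1 siRNA), 511 CPM (low NT) and 355 CPM (low Satb1 siRNA), with a high log2 fold change of -0.25 (SE 0.019, edgeR adjusted p = 3.62e-10). The subunits moved within a narrow band in the low experiment too, where their log2 ratios ran from -0.56 for Arpc4 to -0.36 for Arpc1b. The actin-related proteins of the complex, Actr2 and Actr3, had high log2 fold changes of -0.23 and -0.11, and the other subunit genes Arpc1b, Arpc2 and Arpc4 of -0.24, -0.13 and -0.17.

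The GTPase and WASP genes upstream of Arp2/3 changed little, with a median of -0.084 in the high experiment. Of 6 measured members 4 fell, 1 rose and 1 was not called. Was, the blood cell member of the WASP family, stood at 62.0 and 61.4 CPM (high NT), 50.8 and 49.6 CPM (high Satb1 siRNA), 108 CPM (low NT) and 84.4 CPM (low Satb1 siRNA). Its high log2 fold change was -0.29 (SE 0.026, edgeR adjusted p = 6.65e-09), the largest of this group. Cdc42, the GTPase that activates WASP proteins, stood at 641 and 645 CPM (high NT), 591 and 593 CPM (high Satb1 siRNA), 1067 CPM (low NT) and 885 CPM (low Satb1 siRNA), with a high log2 fold change of -0.11 (SE 0.0059, edgeR adjusted p = 1.44e-12). Rhoa and Rac1, the GTPases of contractility and of lamellipodia, had values of -0.096 and -0.063. The Rac1 call ended without high Satb1 siRNA replicate 1 (edgeR adjusted p = 0.0513) and with scaling by library size alone (edgeR adjusted p = 0.672). Wipf1, the partner that stabilises WASP, was called higher at 0.080, a call that ended without high NT replicate 1 (edgeR adjusted p = 0.0629), without high Satb1 siRNA replicate 2 (edgeR adjusted p = 0.139) and under DESeq2 (its adjusted p = 0.147). Rac2, the Rac of blood cells, was at -0.072 and not called (edgeR adjusted p = 0.0526), but passed without a filter on low counts (edgeR adjusted p = 0.0424).

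Genes that cap, sever or extend filament ends fell as a group of 5 in the high experiment, with a median of -0.59. Capg, a macrophage capping protein, stood at 184 and 183 CPM (high NT), 107 and 103 CPM (high Satb1 siRNA), 836 CPM (low NT) and 610.0 CPM (low Satb1 siRNA). It fell by 0.80 on the log2 scale (SE 0.021, edgeR adjusted p = 2.12e-17). Evl and Vasp belong to the Ena/VASP family, which lengthens filaments at the leading edge. Evl stood at 83.2 and 82.9 CPM (high NT), 50.5 and 50.2 CPM (high Satb1 siRNA), 294 CPM (low NT) and 216 CPM (low Satb1 siRNA), and its high log2 fold change was -0.72 (SE 0.025, edgeR adjusted p = 2.71e-15). Vasp stood at 49.1 and 47.0 CPM (high NT), 32.6 and 30.8 CPM (high Satb1 siRNA), 334 CPM (low NT) and 161 CPM (low Satb1 siRNA), with a high log2 fold change of -0.59 (SE 0.032, edgeR adjusted p = 2.90e-12). Both were lower with Satb1 siRNA in each experiment as scaled here, Vasp by more in the low one. The low Evl ratio was -0.44 but 0.0037 in the authors' FPKM. Coro1a, the coronin of leukocytes, fell by 0.53. Gsn, the severing protein gelsolin, fell by 0.41 in the high experiment and was higher in the low one (244 against 268 CPM).

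Crosslinker and bundler genes had a median of -0.23 in the high experiment, with 4 of 5 called lower and 1 higher. Flna, which encodes the crosslinker filamin A, stood at 975 and 970.4 CPM (high NT), 826 and 815 CPM (high Satb1 siRNA), 1652 CPM (low NT) and 1417 CPM (low Satb1 siRNA), with a high log2 fold change of -0.24 (SE 0.0045, edgeR adjusted p = 6.40e-20). Lcp1, the leukocyte plastin L-plastin, and Actn4, an alpha-actinin, fell by 0.23 and 0.21. Actn1, the other alpha-actinin, was called higher at 0.12 (SE 0.027, edgeR adjusted p = 5.80e-04). Fscn1, the gene of fascin, was low in the high experiment, with 52 and 56 counts against 27 and 25, a log2 fold change of -0.64 (SE 0.25, edgeR adjusted p = 0.0302). That call ended without any 1 of the 4 libraries (edgeR adjusted p = 0.0711 without NT replicate 1, 0.0966 without NT replicate 2, 0.0959 without Satb1 siRNA replicate 1 and 0.106 without Satb1 siRNA replicate 2) and under DESeq2 (its adjusted p = 0.206).

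Genes that tie actin to adhesions and to the membrane moved in both directions in the high experiment, with 2 called lower, 1 higher and 1 not. Vinculin (Vcl), which links talin to actin at integrin adhesions, stood at 158 and 156 CPM (high NT), 181 and 179.5 CPM (high Satb1 siRNA), 111 CPM (low NT) and 193 CPM (low Satb1 siRNA). Its high log2 fold change was 0.21 (SE 0.018, edgeR adjusted p = 6.15e-09), the largest rise among the members. Marcksl1, a relative of the membrane-bound actin regulator MARCKS, stood at 67.0 and 64.9 CPM (high NT), 50.4 and 48.6 CPM (high Satb1 siRNA), 1077 CPM (low NT) and 359.8 CPM (low Satb1 siRNA). It fell by 0.41 on the log2 scale (SE 0.028, edgeR adjusted p = 1.09e-10) in the high experiment. Ezrin (Ezr) and moesin (Msn) join actin to the plasma membrane. Ezr was called lower by a small amount (-0.042) that became 0.012 with scaling by library size alone. Msn, at 0.019, was not called (edgeR adjusted p = 0.110). It passed as higher without high NT replicate 1 (edgeR adjusted p = 0.0231), without high Satb1 siRNA replicate 2 (edgeR adjusted p = 0.0240) and with scaling by library size alone (edgeR adjusted p = 1.56e-05). Vim, the intermediate filament gene vimentin, which is not an actin gene, stood at 1054 and 1052 CPM (high NT), 829 and 829 CPM (high Satb1 siRNA), 1516 CPM (low NT) and 1488 CPM (low Satb1 siRNA). Its high log2 fold change was -0.34 (SE 0.0037, edgeR adjusted p = 5.68e-24), while its low ratio was -0.026.

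**Figure D2:**
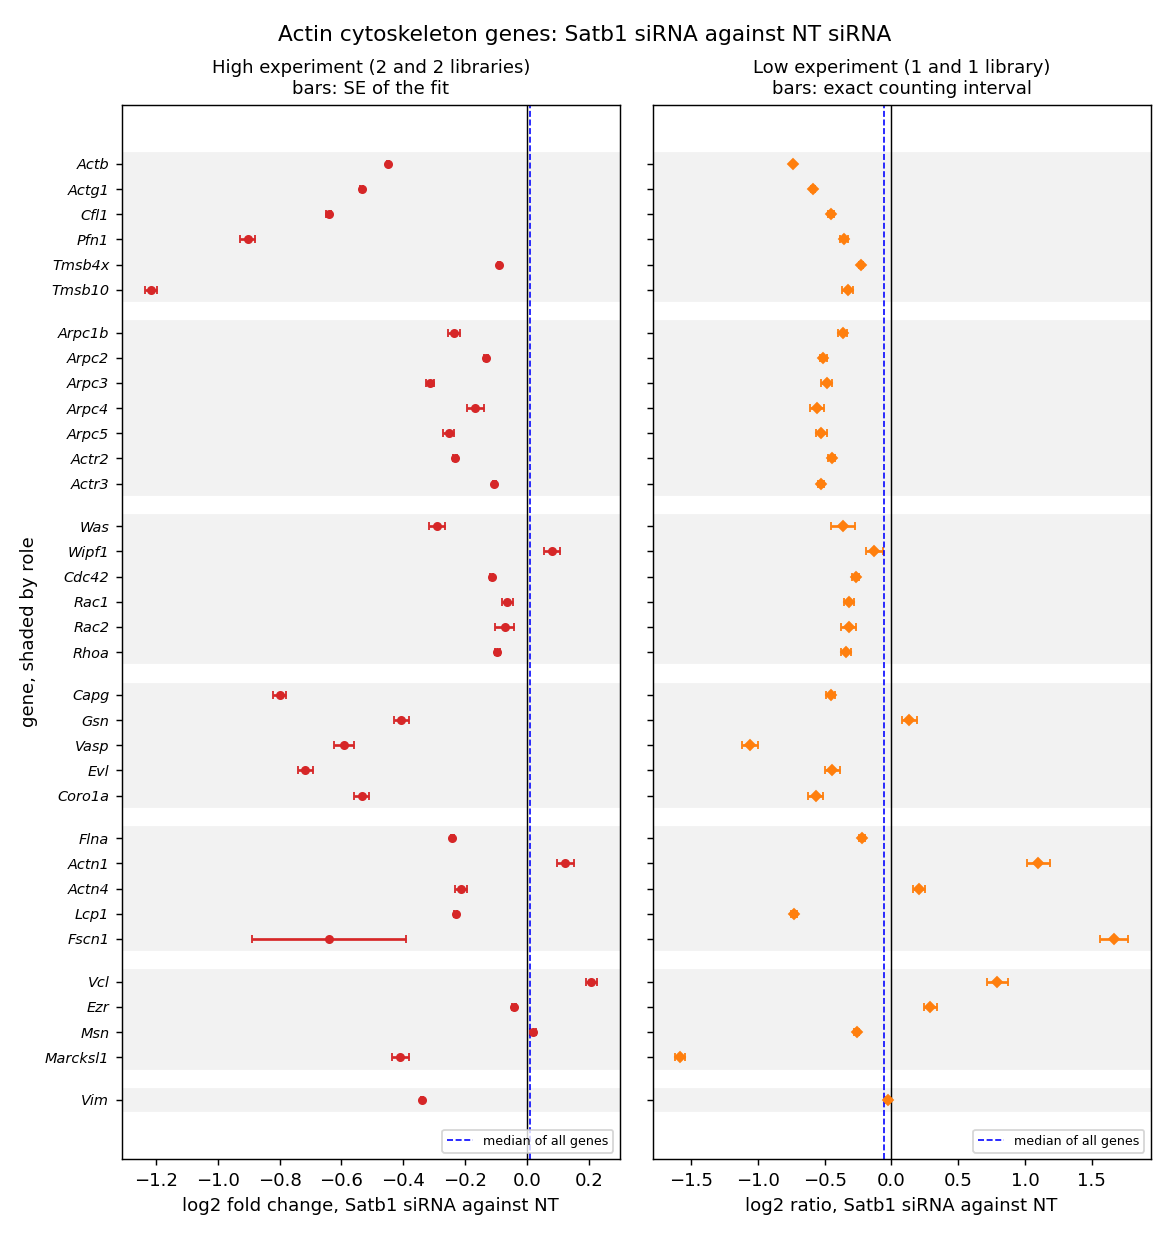
Log2 difference between Satb1 siRNA and NT siRNA for each member, on the left in the high experiment with the SE of the edgeR fit and on the right in the low experiment with the exact 95% counting interval; the dashed lines are the medians of all genes. On the left the points reach from -1.22 (Tmsb10) to 0.21 (Vcl), and on the right from -1.58 (Marcksl1) to 1.67 (Fscn1).

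Actg1 and Vcl moved in opposite directions, and their promoters share a binding motif of serum response factor, the transcription factor that reads the pool of free actin monomers through its coactivators. The CArG box, searched by its standard consensus, which is its own reverse complement, occurred in 3 of 41 promoters of the 31 members found in RefSeq's promoter table (7.32%; the Actb, Rac1 and Rac2 promoters were not searched), against 1.63% of all 32851 promoters of the same length (250 bases before to 50 after the gene start, GRCm38.p6, while the counts were made on mm9). This is a description of letters and not of binding. The 3 promoters are shown because they are those among the searched members that hold the motif, which is in capitals, read 5′ to 3′ on the gene's strand:
Actg1, chr11:120348446-120348745, minus strand: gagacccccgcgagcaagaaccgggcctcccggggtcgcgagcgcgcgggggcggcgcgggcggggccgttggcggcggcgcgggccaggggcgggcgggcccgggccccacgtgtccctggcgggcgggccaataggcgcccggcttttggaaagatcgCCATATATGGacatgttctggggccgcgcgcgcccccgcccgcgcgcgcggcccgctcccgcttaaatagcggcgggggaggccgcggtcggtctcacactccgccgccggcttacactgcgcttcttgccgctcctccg
Vcl, chr14:20929148-20929447, plus strand: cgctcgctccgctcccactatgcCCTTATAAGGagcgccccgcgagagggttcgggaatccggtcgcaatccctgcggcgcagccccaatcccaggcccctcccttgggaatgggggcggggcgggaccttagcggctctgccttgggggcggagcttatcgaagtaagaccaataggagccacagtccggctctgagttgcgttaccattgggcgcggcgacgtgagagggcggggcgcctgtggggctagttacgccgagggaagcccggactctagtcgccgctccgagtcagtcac
Arpc4, chr6:113377863-113378162, plus strand: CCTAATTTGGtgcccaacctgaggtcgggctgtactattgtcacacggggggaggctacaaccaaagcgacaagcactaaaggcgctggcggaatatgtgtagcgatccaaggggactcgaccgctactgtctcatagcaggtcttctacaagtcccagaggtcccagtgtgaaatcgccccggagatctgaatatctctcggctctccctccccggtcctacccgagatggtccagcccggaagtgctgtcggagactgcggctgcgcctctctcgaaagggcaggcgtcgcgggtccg
The motif ended 80 bases before the gene start in Actg1, 217 in Vcl and 240 in Arpc4. Beside these sequences, Actg1 went from 992 and 984 to 683 and 678 CPM, Arpc4 from 68.8 and 66.6 to 58.8 and 61.5 CPM, and Vcl from 158 and 156 up to 181 and 179.5 CPM. Holders of the motif thus did not share a direction. Srf itself, the gene of serum response factor and no member, had a high log2 fold change of -0.63 (SE 0.037, edgeR adjusted p = 9.85e-12) (22.2 and 22.7 against 14.8 and 14.1 CPM).

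In the high experiment shorter members fell by more. The effective transcript length, which is implied by the authors' FPKM and counts, ran from 541 bases for Tmsb10 to 8538 for Flna, and the Spearman correlation with the log2 fold change was 0.60 across the 34 members and 0.25 across 12958 genes with a log2 CPM of at least 1. Genes of 1 library set are not independent of each other, so this is a description. Those genes, 33 members among them (all but Fscn1), were cut into 4 equal parts by length. The 12 members of the shortest part had a median of -0.47 against -0.14 for all its genes, the 11 of the second -0.29 against -0.093, the 7 of the third -0.072 against -0.033, and the 3 of the longest 0.080 against 0.070. Tmsb4x did not follow this order, at 649 bases and -0.090. The nuclear RNAs Malat1 and Neat1 differed between the same libraries: their sum was 24556 and 24561 CPM (high NT) and 28689.6 and 28808 CPM (high Satb1 siRNA). The part of length or of nuclear RNA in the members' fall was not tested.

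**Figure D3:**
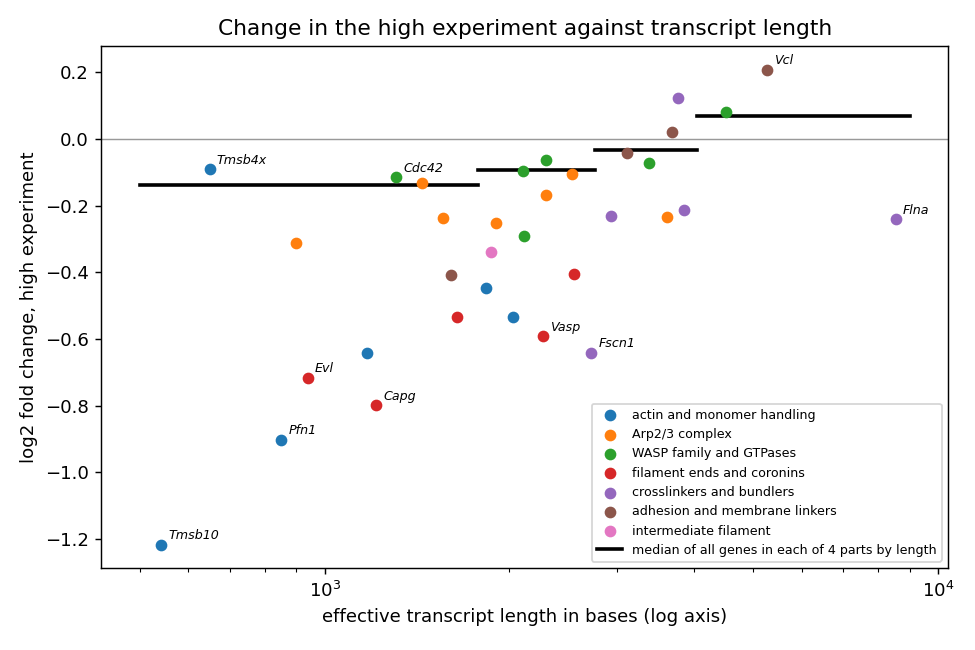
Log2 fold change of each member in the high experiment against its effective transcript length in bases on a log axis, coloured by role; the black bars are the medians of all genes in each of the 4 parts by length, drawn over the range of the plot. Tmsb10, Pfn1, Evl and Capg lie at the lower left, while Tmsb4x and Cdc42, also short, lie near 0.

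In the low experiment, with 1 library per siRNA and no replicate check, 3 members were at least 1.5-fold higher with Satb1 siRNA (Fscn1, Actn1 and Vcl) and 5 at least 1.5-fold lower (Marcksl1, Vasp, Actb, Lcp1 and Actg1). These are 8.82% and 14.7% of the members. With library size alone 4 were higher by that line, Ezr joining at 0.65, and 2 lower (Marcksl1 and Vasp), since Actb (-0.38), Lcp1 (-0.38) and Actg1 (-0.23) no longer reached it; in the authors' FPKM 2 were lower and with DESeq2 size factors 9. By the same line and with TMM, 15.6% of all genes were higher and 12.2% lower (13700 genes whose mean log2 CPM was 0 or more). These shares are set against the 8.82% and 14.7% of the members, and not against the counts under other scalings. The median log2 ratio was -0.36 over the members and -0.059 over all genes. With scaling by library size alone the median of all genes moved to 0.29 and that of the members to -0.0019, so the members lay below all genes by -0.30 and -0.29 under these scalings while their own sign rested on the choice. The direction was the same under 5 scalings for 22 members, 16 of them lower and 6 higher, and differed between scalings for the other 12 (Pfn1, Tmsb4x, Tmsb10, Wipf1, Cdc42, Rac1, Rac2, Rhoa, Evl, Flna, Msn and Vim).

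Among the 34 members fascin had the largest ratio in the low experiment. Fscn1 stood at 0.700 and 0.718 CPM (high NT), 0.458 and 0.447 CPM (high Satb1 siRNA), 49.9 CPM (low NT) and 158 CPM (low Satb1 siRNA). Its low log2 ratio was 1.67, with an exact 95% counting interval of 1.56 to 1.77. The 7 mature dendritic cell markers, of which Fscn1 is not one, were split: Ccr7 (128 and 154 CPM with NT and Satb1 siRNA), Ccl22 (72.7 and 124), Ccl17 (21.5 and 33.9) and Il12b (1.62 and 4.09) were higher, like Fscn1. Cd40 (377 and 159), Cd83 (169 and 115) and Relb (154 and 92.9) were lower, and the sum went from 923 to 684 CPM. Their part in the Fscn1 value was not tested. Actn1 stood at 37.6 and 37.3 CPM (high NT), 40.9 and 40.3 CPM (high Satb1 siRNA), 81.5 CPM (low NT) and 175 CPM (low Satb1 siRNA), with a low log2 ratio of 1.10 (1.02 to 1.19). Vcl followed at 0.79 (0.72 to 0.87), and the membrane linker Ezr (0.29), Actn4 (0.21) and Gsn (0.13) were the other 3 members that were higher under every scaling run. On the other side Marcksl1 had a low log2 ratio of -1.58 (-1.62 to -1.54) and Vasp of -1.06, and the leukocyte bundler Lcp1 went from 1972 to 1188 CPM (-0.73). Actg1, at -0.59, lay just past the 1.5-fold line and Coro1a, at -0.57, just inside it.

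Markers of other cell types moved between the low libraries as well. The sum of 9 tumour, epithelial and mesothelial markers (9 of 9 found, none at 0) was 191 CPM in the low NT library and 678 CPM in the low Satb1 siRNA library, and 866 to 969 CPM across the high libraries. Among them Upk3b went from 40.1 to 198 CPM, Wt1 from 37.6 to 143 CPM and Krt19 from 44.9 to 128 CPM. The sum of 8 fibroblast and smooth muscle markers (8 of 8 found; Cnn1 at 0 in the low NT library) was 66.2 and 125 CPM in the low libraries and 215 to 269 CPM in the high ones. The 7 classical dendritic cell markers summed to 10965 and 10722 CPM in the low libraries. Of these, Itgax, Flt3, Zbtb46, H2-Aa and Kit were higher with Satb1 siRNA (Flt3 41.5 against 16.4 CPM). The abundant Cd74 (6386 against 6811 CPM) and H2-Ab1 (1632 against 1705 CPM) were slightly lower with TMM scaling. In the authors' FPKM both were higher with Satb1 siRNA (Cd74 4552 against 3808, H2-Ab1 1231 against 1004), so their direction rested on the scaling. The 10 macrophage markers summed to 9009.9 CPM with NT and 5599 CPM with Satb1 siRNA, and 7 neutrophil markers of 8 listed (none at 0) to 569 and 266 CPM in the low libraries and 95.0 to 105 CPM in the high ones. Of the macrophage markers Vsig4 alone was higher with Satb1 siRNA as scaled here (7.58 and 11.4 CPM). The part of these cell types in the members' values was not tested.

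**Figure D4:**
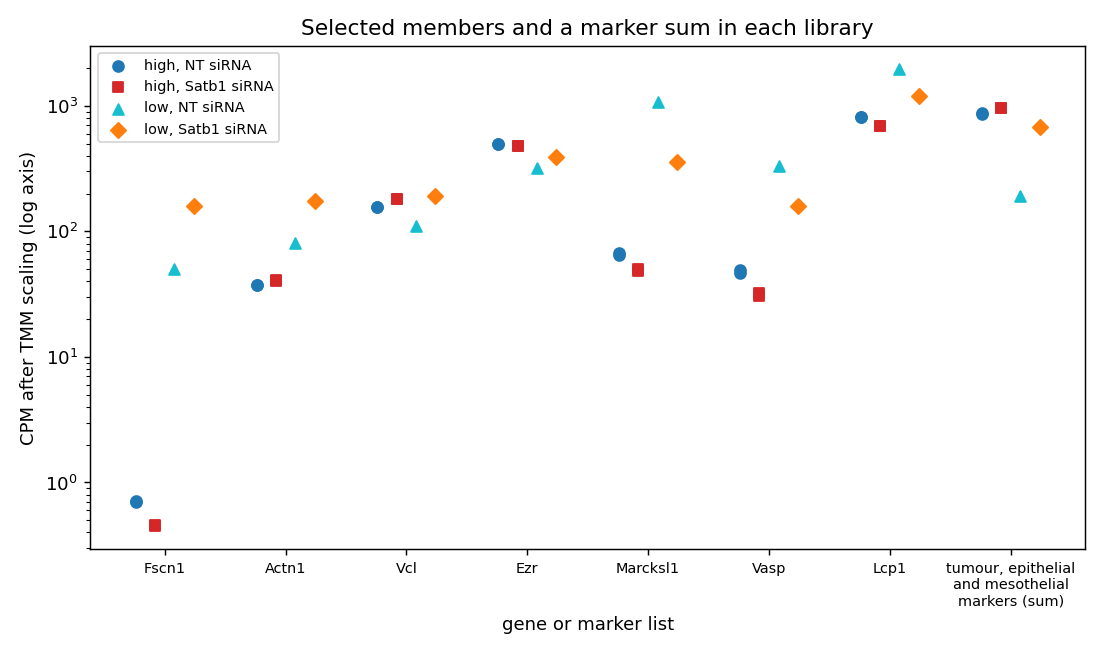
CPM after TMM scaling on a log axis in each of the 6 libraries for 7 members and for the sum of 9 tumour, epithelial and mesothelial markers, 1 point per library. In the low experiment Fscn1, Actn1, Vcl and Ezr stand higher with Satb1 siRNA, as does the marker sum (191 against 678 CPM), while Marcksl1, Vasp and Lcp1 stand lower.

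The control libraries of the experiments differed by far more than the siRNA groups did. Of 34 members 31 were at least 1.5-fold higher in the low NT library than in the mean of the high NT libraries, against 35.9% of all genes, and 1 (Ezr) was at least 1.5-fold lower, against 31.8%. The median log2 ratio was 1.44 over the members and 0.073 over all genes. In CPM after TMM scaling, without a prior count, Fscn1 differed most, at 70.4-fold, then Marcksl1 at 16.3-fold, Rac2 at 9.22-fold and Pfn1 at 7.14-fold. The log2 ratio of Fscn1 with the prior count of 2 was 6.06. Rac2 stood at 28.2 and 27.9 CPM (high NT), 26.6 and 26.6 CPM (high Satb1 siRNA), 259 CPM (low NT) and 207 CPM (low Satb1 siRNA). The smallest ratios were those of Vim (0.53), Vcl (-0.49) and Ezr (-0.65), and Ezr stood at 500.1 and 496 CPM (high NT), 481 and 483 CPM (high Satb1 siRNA), 317 CPM (low NT) and 388 CPM (low Satb1 siRNA). With scaling by library size alone 20 members were at least 1.5-fold higher and 2 lower, with a median of 0.81 where that of all genes was -0.56.

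Other properties of the libraries differed between the control groups too. Malat1 and Neat1 summed to 1767 CPM (low NT) against 24556 and 24561 CPM (high NT). The 7 classical dendritic cell markers (7 of 7 found, none at 0) summed to 10965 CPM against 476 and 472 CPM, most of it from Cd74, H2-Aa and H2-Ab1 of the MHC class II pathway, and the 7 mature dendritic cell markers (7 of 7 found, none at 0) to 923 against 102 and 103 CPM. The part of these in the members' difference was not tested, and experiment, depth and cell makeup cannot be told apart here.

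**Figure D5:**
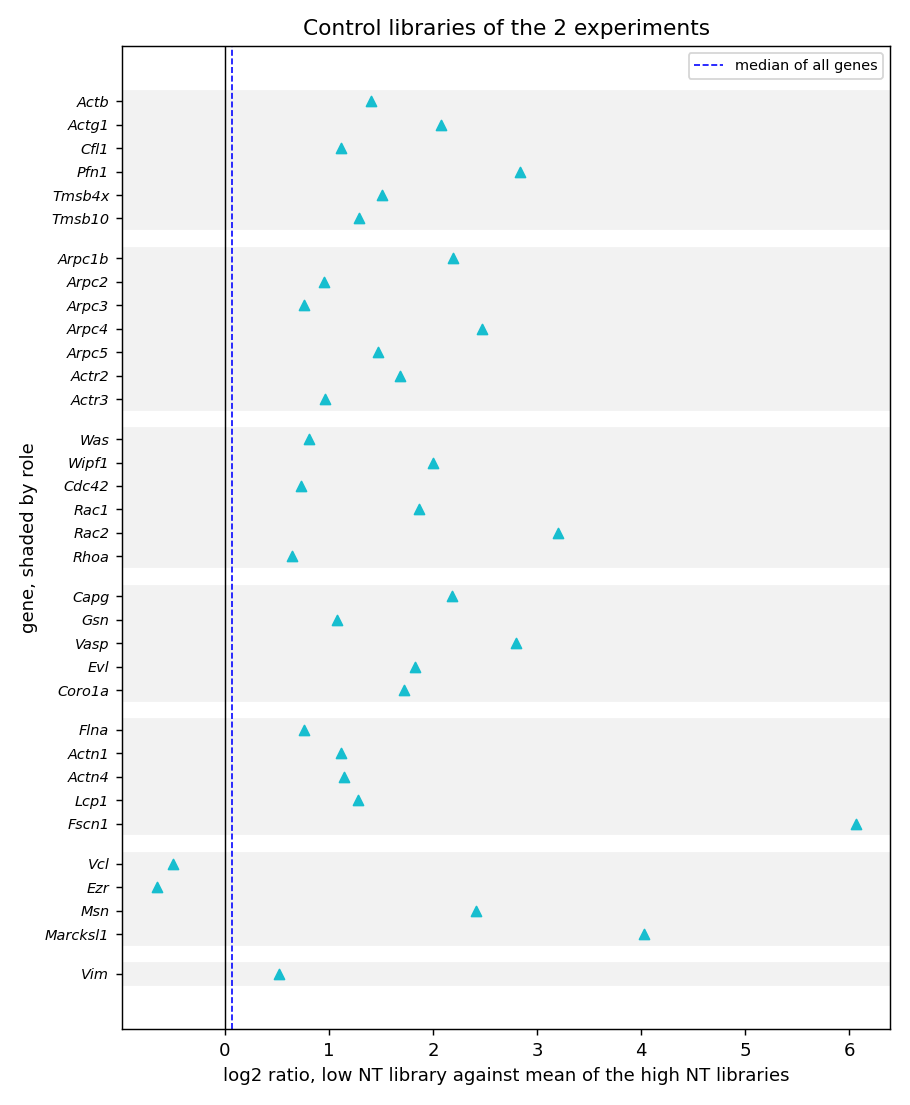
Log2 ratio of the low NT library to the mean of the high NT libraries for each member, grouped by role; the dashed line is the median of all genes (0.073). All members but Vcl and Ezr lie above that line, and Fscn1 is farthest out at 6.06.

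The response to Satb1 siRNA was set side by side between the experiments, which share no library. Of 34 members 26 were below 0 in both experiments (76.5%), against 37.1% of 13700 genes, a count that was 17 of 34, against 15.5% of all genes, with library size alone. By the main scaling 25 lay below the median of all genes in both (73.5%), against 34.5% of all genes. The difference of the effects (high minus low) was called for 31 of 34 members in an edgeR fit over all 6 libraries, where 37.3% of all genes were called, but the low groups borrow their spread from the near-identical high repeats in this fit. The sign of the difference was turned by scaling by library size alone for 13 of these 31. For 16 members it was called with the same sign with TMM, library size alone and DESeq2: Pfn1, Tmsb10, Cfl1, Capg, Gsn, Actn1, Actn4, Fscn1, Vcl, Ezr and Vim stood lower in the high experiment relative to the low, and Marcksl1, Vasp, Lcp1, Arpc2 and Actr3 higher. In a fit to summed repeats with a term for the experiment, which leaves 2 samples per siRNA, edgeR called none of the 34 members (10 at an unadjusted p under 0.05, 8 of them lower, against 9.79% of all genes at that p and 0.0315% called). DESeq2 on the same sums called 1 member, Vasp, among 175 called of 9826 genes tested.

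Beyond the members, 95 of 100 further listed actin genes were found, with a median log2 fold change of -0.088 in the high experiment. Of the 95, 53 fell (55.8%), 22 rose (23.2%) and 20 were not called, against 32.8% and 32.0% of all genes, the shares that the counts per list below are read against. With library size alone 42 fell (44.2%) and 28 rose (29.5%), against 27.5% and 37.0% of all genes. Filament turnover and capping genes fell in 10 of 16 cases and rose in 4, the twinfilin gene Twf2 being lower by 0.51. Activators of Arp2/3 fell in 6 of 12 and rose in 2, and Hcls1, a cortactin relative of blood cells, was at -0.39. Formins, which start unbranched filaments, fell in 3 of 7 and rose in 1 (Diap3 -0.57). Myosins and tropomyosins fell in 8 of 16 and rose in 5, and the myosin light chain kinase gene Mylk was called higher at 0.79, from 2.41 and 3.08 to 4.59 and 4.88 CPM. Integrin adhesion genes fell in 9 of 15 and rose in 4, the scaffold paxillin (Pxn) being at -0.53. Other bundling and binding genes fell in 6 of 9 and rose in 1 (Swap70 -0.38), and genes of the serum response factor axis fell in 3 of 6.

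In the low experiment 7 of 93 such genes (7.53%) were at least 1.5-fold higher and 10 (10.8%) lower, no more than the 15.6% and 12.2% of all genes. Those named next were chosen after their values were seen. Among the highest ratios were Myl9, the regulatory light chain of smooth muscle myosin, from 1.88 to 11.7 CPM, Mylk from 0.889 to 4.27 CPM, the WAVE complex gene Nckap1 from 15.8 to 49.8 CPM and the tropomyosin gene Tpm1 from 45.5 to 102 CPM. Among the lowest were Gmfg, a debranching factor of Arp2/3 networks, from 105 to 39.2 CPM, and pleckstrin (Plek), a protein of platelets and leukocytes, from 1572 to 711 CPM. Smooth muscle actin (Acta2) was lower, at 7.95 and 4.09 CPM. Contractile genes as a list moved both ways. The 15 myosin and tropomyosin genes had a median low log2 ratio of 0.061, with 4 at least 1.5-fold higher and 1 lower (Tpm4, from 763 to 507 CPM). The tumour, epithelial and mesothelial markers given above differed between the same libraries, and their part was not tested. A pair of rows that carry another symbol are described in the deposited table as talin (mKIAA1027) and as the MARCKS protein (AK017779). They were not counted as members. The talin row stood at 572 and 569.6 CPM (high NT), 546 and 547 CPM (high Satb1 siRNA), 1430.4 CPM (low NT) and 1330.3 CPM (low Satb1 siRNA), a high log2 fold change of -0.059, and the MARCKS row at 499 and 496 CPM (high NT), 524 and 526 CPM (high Satb1 siRNA), 384 CPM (low NT) and 362 CPM (low Satb1 siRNA), a high log2 fold change of 0.084.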

How the data were processed

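RNA-seq libraries were made from total RNA with a stranded kit, per the labels' protocols. The single deposited table gives FPKM and counts per gene, per the file headers. The counts deposited by the authors are taken as estimated counts (RSEM's expected counts), because RSEM 1.2.12, DESeq2 and mm9 are named in the submitters' processing notes; they were already whole, so rounding changed nothing. In FPKM, which the authors also deposited, a count is set against transcript length and depth. No aligner, filter or strand setting is named in the sources used here. Estimated counts divide reads shared by similar genes.

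The main test was edgeR 4.0.16 (quasi-likelihood, TMM, filterByExpr by group, Benjamini-Hochberg over all genes tested, threshold 0.05) on the 4 high libraries. The same test was run for the difference of effects over 6 libraries, and on summed repeats with the experiment as a term. The low experiment and the controls were described by log2 ratios of CPM (prior count 2, TMM over 6 libraries, mean log2 CPM of at least 0), with no test and a 1.5-fold line. DESeq2 1.42.0, library size alone, no filter, a replicate block, other priors, FPKM with a pseudocount of 0.1 and leaving out libraries were alternatives. Fits were tested on simulated counts.

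Total counts ran from 24553454 to 71272720, and a count of 0 allows 3 counts, or 0.0384 to 0.157 CPM in TMM-scaled units. Such limits describe counting error alone. The members and gene lists were chosen with earlier results of these data known. Genes given with values in every library are, by a fixed rule, the 2 largest called changes in each role group, the 5 highest in FPKM, and the 4 largest low and control ratios; further actin genes named in the high experiment are the largest called change of each list (mean log2 CPM of 1 or more). Values per library of Actg1, Arpc4, Lcp1, Gsn and Ezr, outside this rule, and the markers named singly were added after they were seen. Older symbols were looked up among RefSeq synonyms (GRCm38.p6) for the further and marker lists only, and 71 of 73 marker entries matched. The result of 1 list of further actin genes is not reported here.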

Additional observations from a re-analysis of the deposited data

Results flagged for a closer look

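The difference of the effects of Satb1 siRNA between the experiments was called for 31 of the 34 members, and for 37.3% of all genes, in edgeR (adjusted p = 4.63e-17 to 0.00401). The low experiment has 1 library per siRNA, so these p-values rest only on the spread of the near-identical high repeats and do not test a difference over independent samples. Values are the log2 effect in the high experiment minus that in the low. They stood below 0, with the same sign and a call with TMM, library size alone and DESeq2, for Cfl1 -0.19, Pfn1 -0.55, Tmsb10 -0.89, Capg -0.35, Gsn -0.55, Actn1 -0.98, Actn4 -0.43, Fscn1 -2.31, Vcl -0.59, Ezr -0.34 and Vim -0.32. They stood above 0 under the same 3 fits for Arpc2 0.37, Actr3 0.42, Vasp 0.46, Lcp1 0.50 and Marcksl1 1.17. The remaining called values lost the call or changed sign in at least 1 of these fits: Evl -0.28, Actb 0.29, Actg1 0.048, Tmsb4x 0.13, Arpc1b 0.12, Arpc3 0.17, Arpc4 0.39, Arpc5 0.27, Actr2 0.21, Wipf1 0.21, Cdc42 0.15, Rac1 0.25, Rac2 0.25, Rhoa 0.24 and Msn 0.28.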

How the results depend on the processing

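Most alternatives kept direction and side of the threshold for the members of the high experiment. The calls that changed for single members stand beside them in the report, and the only called sign that turned was that of Ezr, at 0.012 with library size alone. The members' median in the high experiment was -0.18 with library size alone, -0.24 with DESeq2, -0.24 without a filter and -0.24 with 4 group means over 6 libraries. Leaving out 1 high library gave medians of -0.25 to -0.24, 27 to 28 members lower and 3 higher, and 20 to 22 higher and 50 to 52 lower among the further actin genes, whose counts were 28 and 42 with library size alone. Scaling mattered most in the low experiment and between the controls, whose values have no test. In the low experiment 2 members were at least 1.5-fold lower with library size alone (median -0.0019), 9 with DESeq2 size factors (median -0.42), 2 in the authors' FPKM (median 0.0033, a turned sign) and 2 at a 2-fold line, and the median minus that of all genes was -0.30. Between controls, library size alone gave 20 members higher and 2 lower (median 0.81), DESeq2 size factors a median of 1.47, the authors' FPKM 19 higher and 2 lower (median 0.77), centring on all genes a median of 1.37 and a 2-fold line 0 lower. Without high NT replicate 1 or 2 that comparison kept 31 higher and 1 lower, with medians of 1.44. These repeats are nearly identical and the only low NT library cannot be left out, so this says little about the stability of the difference. With the experiment as a term, 1 member was called with library size alone (Marcksl1), 1 with DESeq2 and 1 without a filter (both Vasp). Among all genes these fits called 360 of 19068, 175 of 9826 and 228 of 24080. The members below 0 in both experiments numbered 17 with library size alone and 26 with DESeq2, alternatives chosen after seeing the data. The replicate number as a block (replicate block) gave 29 members lower and 3 higher with a median of -0.24. The labels state no pairing, and the deviations of same-numbered libraries correlated at -0.041. Depth limits Fscn1 in the high experiment, at 25 to 56 counts.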
